A study of Mus musculus with 12 samples.

Results

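The IL-6 family is described here by 9 genes, 4 cytokines (Il6, Lif, Il11, and Osm) and 5 receptor chains (Il6ra, Il6st, Osmr, Lifr, and Il11ra1), chosen by name from the cytokines that signal through gp130 and their receptors. They are 9 of the 54119 genes with fragment counts in the libraries, and all 9 passed the filter on low counts that left 19150 genes for testing. Il6 passed it only through the latest of the groups described below. RNA was sequenced from vessels isolated from the forebrain of wild type C57BL6 mice aged 2 to 3 months. Mice of 3 groups were given LPS (lipopolysaccharide, the endotoxin of Gram-negative bacteria) intraperitoneally at 10 mg/kg and were killed 15 min, 30 min, or 4 h later, and the other group was given PBS, for which no killing time was stated. Each group had 3 libraries, and each library pooled vessels from 1 male and 1 female, so that a group drew on 6 mice. Depth was 18.3 to 25.9 M fragments per library. The 6 endothelial markers summed to between 8759 and 8915 TPM (a level scaled for transcript length) in PBS. At 4 h they summed to between 3486 and 3520 TPM, with no marker at 0 in either group. TPM is a share of all transcripts in a library, and the 5 pericyte markers went from a mean of 2404 to 1115 TPM. In the test described below, 3 endothelial markers were lower and 1 higher at 4 h than in PBS (median log2 fold change -0.56). Of the pericyte markers 0 passed there (median 0.03). Beside these, 13.9% of all genes were called lower and 19.1% higher.

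All cytokines of this family signal through gp130, the shared chain that Il6st encodes. IL-6 binds the receptor of Il6ra and IL-11 that of Il11ra1, and each complex then joins gp130, whereas LIF and oncostatin M signal through gp130 paired with the chains of Lifr or Osmr. Signaling runs through JAK kinases and STAT3 and is held back by SOCS3, and IL-6 also acts on cells without its receptor when the receptor is shed in soluble form. Brain endothelial cells are known to make IL-6 during systemic inflammation.

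No member passed the test at 15 min, Il6, Osm, and Osmr rose at 30 min, and all but Lifr and Il11ra1 rose at 4 h post LPS. A gene was called when edgeR's test against a fold limit of 0.58 on the log2 scale, about 1.5-fold, gave an adjusted p (Benjamini-Hochberg, all 19150 genes) under 0.05. At 15 min 0 of the 9 members passed, beside 4.25% of all genes, 3.35% higher and 0.898% lower. No member had an unadjusted p under 0.05 in that test either, and DESeq2 and limma also called 0. The quasi-likelihood test without the fold limit called 3, but it also called 7393 of all 19150 genes. At 30 min 3 members rose and 0 fell, beside 3.8% of all genes called higher and 0.815% called lower (4.62% in all). None was lower at an unadjusted p under 0.05 or by DESeq2 or limma. With only the 30 min and PBS libraries in the fit 2 rose, beside 706 genes called higher, as Il6 then fell below the filter on low counts. At 4 h 7 members rose and 1 fell, beside 33% of all genes called, 19.1% higher and 13.9% lower. The 3 LPS groups were compared with the same PBS libraries, so these counts are not independent of each other. In the same order of times, the members had median log2 fold changes of -0.00, 0.15, and 3.63, against -0.00, -0.01, and -0.01 over all genes. The 3 libraries of LPS and of PBS did not overlap in 3 members at 15 min, 8 at 30 min, and 9 at 4 h, beside 49.3%, 46.7%, and 70.9% of all genes. Between the LPS groups they did not overlap in 7 members from 15 to 30 min and in 9 from 30 min to 4 h, beside 47.6% and 67.5% of all genes. When the LPS groups were compared with each other, 2 members rose from 15 to 30 min, beside 2.77% of all genes called higher and 1.99% lower (4.76% in all), and 6 rose from 30 min to 4 h, beside 17% higher and 11.9% lower (28.9% in all). In both of these 0 fell, and at an unadjusted p under 0.05 no member was lower at 30 than at 15 min and 1, Lifr, was lower at 4 h than at 30 min, while DESeq2 and limma called 0 lower.

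Il6, which encodes the cytokine that gave the family its name and drives fever and the acute phase response, had no count in any PBS library or in any library at 15 min. At 30 min its level was 0.303, 0.689, and 0.581 CPM (fragments as a share of library size scaled with TMM factors, not corrected for length) in the 3 libraries, from 7, 16, and 13 fragments. At 4 h the libraries had 544, 563, and 536 CPM. Every 30 min library thus lay above every earlier library, and the 4 h libraries lay far above those at 30 min with little spread between them. With a floor of 3 counts over the group in place of 0, Il6 was at least 14.4-fold higher at 30 min than in PBS (adjusted p = 1.89e-05) and at least 13.9-fold higher than at 15 min (adjusted p = 3.11e-05). At 4 h it was at least 15068-fold higher than in PBS (adjusted p = 1.36e-25), and from 30 min to 4 h the log2 fold change was 10.01 with an SE of 0.08 (adjusted p = 4.40e-25). The SE, taken from the size of the change and its F statistic, can understate the uncertainty of a large change from few counts, as in the 36 fragments at 30 min. The rise at 30 min rests on those 36 fragments, and limma on the deposited values plus 10 did not call it (adjusted p = 0.174). Il6 could be tested there only because its 4 h libraries passed the filter on low counts. With only the 30 min and PBS libraries it fell below that filter and could not be fitted.

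The Il6 gene lies on the plus strand at chr5:30013114-30019981 in GRCm38. The 250 bases before its start, which is also the start of its most abundant coding transcript, are shown because Il6 went from no count to the highest level of the family. They are RefSeq sequence of GRCm38.p6, chr5:30012864-30013113, plus strand, 5′ to 3′, with motif matches in capitals.
Il6: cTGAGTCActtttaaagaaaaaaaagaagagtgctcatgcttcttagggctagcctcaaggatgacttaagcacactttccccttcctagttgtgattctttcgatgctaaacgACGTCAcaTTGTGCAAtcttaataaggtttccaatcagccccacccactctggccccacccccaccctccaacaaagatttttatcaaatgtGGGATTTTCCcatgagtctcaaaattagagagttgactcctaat
The capitals mark, in order, an AP-1 match (TGANTCA) from -249 to -243, a CRE half-site (ACGTCA) from -136 to -131, a C/EBP match (TTNNGNAA) from -128 to -121, and an NF-κB consensus match from -44 to -35, counted from the start. Both strands were searched, together with the STAT motif TTCNNNGAA, in the 250 bases before and the 50 after the start, and none of the matches shown overlaps another. Of 32851 RefSeq windows of the same length, 4.51% held an NF-κB match, 7.81% an AP-1 match, 7.51% a CRE half-site, 40.7% a C/EBP match, and 8.30% a STAT match. RefSeq windows were found for 8 of the 9 members, 11 windows in all, and of these the Il6 window was the only one with an NF-κB or a CRE match, 4 held an AP-1 match, 2 a C/EBP match, and 0 a STAT match. For Osm no window was found in that RefSeq set. The windows of Il6 and Il6ra, and 1 each of Il11 and Il11ra1, lay within 1 base of the start of the most abundant coding transcript. The others lay away from it, by 656 bases in Osmr, 9527 in Lif, 10938 in Il6st, 24781 and 13811 in Lifr, 4716 in Il11, and 1866 in Il11ra1. For Lif, Il6st, Osmr, and Lifr the sequence at that start was thus not searched. A match describes letters in the sequence, not a bound site.

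Lif, the gene of leukemia inhibitory factor, had 0.450, 0.371, and 0.573 CPM in the PBS libraries. At 15 min it had 0.271, 0.722, and 0.415 CPM, and at 30 min 0.997, 0.689, and 1.03 CPM. The 15 min libraries overlapped those of PBS, while the 30 min libraries all lay above PBS but overlapped those at 15 min. The log2 fold change at 30 min was 0.96 with an SE of 0.29 and did not pass the test (adjusted p = 0.420). At 4 h the libraries had 201, 192, and 193 CPM, with no overlap with any earlier group. This was a log2 fold change of 8.71 with an SE of 0.11 against PBS (adjusted p = 6.06e-26) and of 7.75 with an SE of 0.10 against 30 min (adjusted p = 2.79e-25).

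Il11 encodes interleukin-11, a cytokine of stromal cells that acts on platelet formation and fibrosis. Its PBS libraries varied widely, at 0.150, 0.877, and 0.382 CPM. It had 0.780, 0.595, and 0.377 CPM at 15 min and 0.607, 0.344, and 0.313 CPM at 30 min, all inside the range of the PBS libraries. At 4 h it reached 18.6, 16.5, and 15.2 CPM, well clear of the other 9 libraries, with a log2 fold change of 5.11 and an SE of 0.32 (adjusted p = 6.26e-12). The log2 fold change from 30 min to 4 h was 5.29 with an SE of 0.34 (adjusted p = 8.56e-12). The 250 bases before the start of its most abundant coding transcript, on the minus strand at chr7:4778142-4778391, held 1 match, of AP-1, from -98 to -92.
Il11: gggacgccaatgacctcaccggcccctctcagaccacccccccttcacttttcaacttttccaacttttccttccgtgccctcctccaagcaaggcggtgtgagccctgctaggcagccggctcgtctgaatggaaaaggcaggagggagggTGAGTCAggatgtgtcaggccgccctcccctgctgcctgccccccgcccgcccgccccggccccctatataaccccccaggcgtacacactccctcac

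Osm, the gene of oncostatin M, a cytokine of neutrophils and macrophages, passed the test at 30 min and was the lowest of the ligands in CPM at 4 h. It had 0.300, 0.101, and 0.115 CPM in PBS, from 14 fragments in all, and 0.373, 0.0850, and 0.0755 CPM at 15 min, which overlapped. At 30 min the libraries had 0.954, 1.33, and 1.30 CPM, all above both earlier groups, with a log2 fold change of 2.77 and an SE of 0.53 against PBS (adjusted p = 0.00304) and of 2.65 with an SE of 0.53 against 15 min (adjusted p = 0.00485). At 4 h they had 3.62, 2.33, and 2.39 CPM, all above the 30 min libraries, and the log2 fold change against PBS was 3.98 with an SE of 0.52 (adjusted p = 2.05e-06). From 30 min to 4 h the change was 1.21 on the log2 scale with an SE of 0.42 and did not pass (adjusted p = 0.0854). On the deposited values limma did not call the change from PBS at 30 min, with an adjusted p of 0.0702 after adding 1 and of 0.199 after adding 10. The change from 15 to 30 min was lost there too (adjusted p = 0.0938 and 0.326) and with a transcript length offset in edgeR (adjusted p = 0.0813).

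Leukocyte markers moved as well, in mice that had been perfused. The 6 neutrophil markers summed to between 13.2 and 19.2 TPM in PBS, 5.70 and 10.8 TPM at 15 min, 17.0 and 25.3 TPM at 30 min, and 567 and 592 TPM at 4 h. Of the 5 that could be tested, 1 (S100a9) fell at 15 min, where 0.898% of all genes were called lower, and 5 rose at 4 h, where 19.1% were called higher. At 30 min 0 passed against PBS, also at an unadjusted p under 0.05 and by DESeq2 and limma. From 15 to 30 min 2, S100a8 (1.71) and S100a9 (2.35), rose on the log2 scale, beside 2.77% of all genes. DESeq2 and limma each called 1 higher there. Osm rose in the same comparison. Ly6g, the defining marker, was at 0 in PBS and at 15 min, had 2 fragments over the 30 min libraries, and had 13 over those at 4 h. The 4 monocyte markers summed to between 26.9 and 32.2 TPM in PBS, 43.3 and 47.4 TPM at 15 min, 36.9 and 42.8 TPM at 30 min, and 99.8 and 109 TPM at 4 h, each LPS group lying above PBS. In the test 0 of the 4 passed at 15 min, with a median log2 fold change of 7.65e-05, beside 4.25% of all genes. Of the same markers 1, Ly6c2, rose at 30 min and 3 at 4 h, beside 3.8% and 19.1% of all genes called higher. The 5 perivascular macrophage markers summed to between 70.2 and 83.4 TPM in PBS, 84.6 and 87.9 TPM at 30 min, and 50.7 and 54.4 TPM at 4 h. Of these 1, Lyve1, rose at 30 min, by 1.195 on the log2 scale (adjusted p = 5.00e-05), beside 3.8% of all genes. At 4 h 2 rose and 0 fell against PBS, with a median log2 fold change of 0.29, beside 19.1% of all genes higher and 13.9% lower. The lower summed TPM at 4 h was thus not seen as a fall in the test. The part of these cells in the rise of Osm, Il6, or Il6ra was not tested, and in bulk libraries fewer cells of a type and less RNA per cell cannot be told apart.

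**Figure D1:**
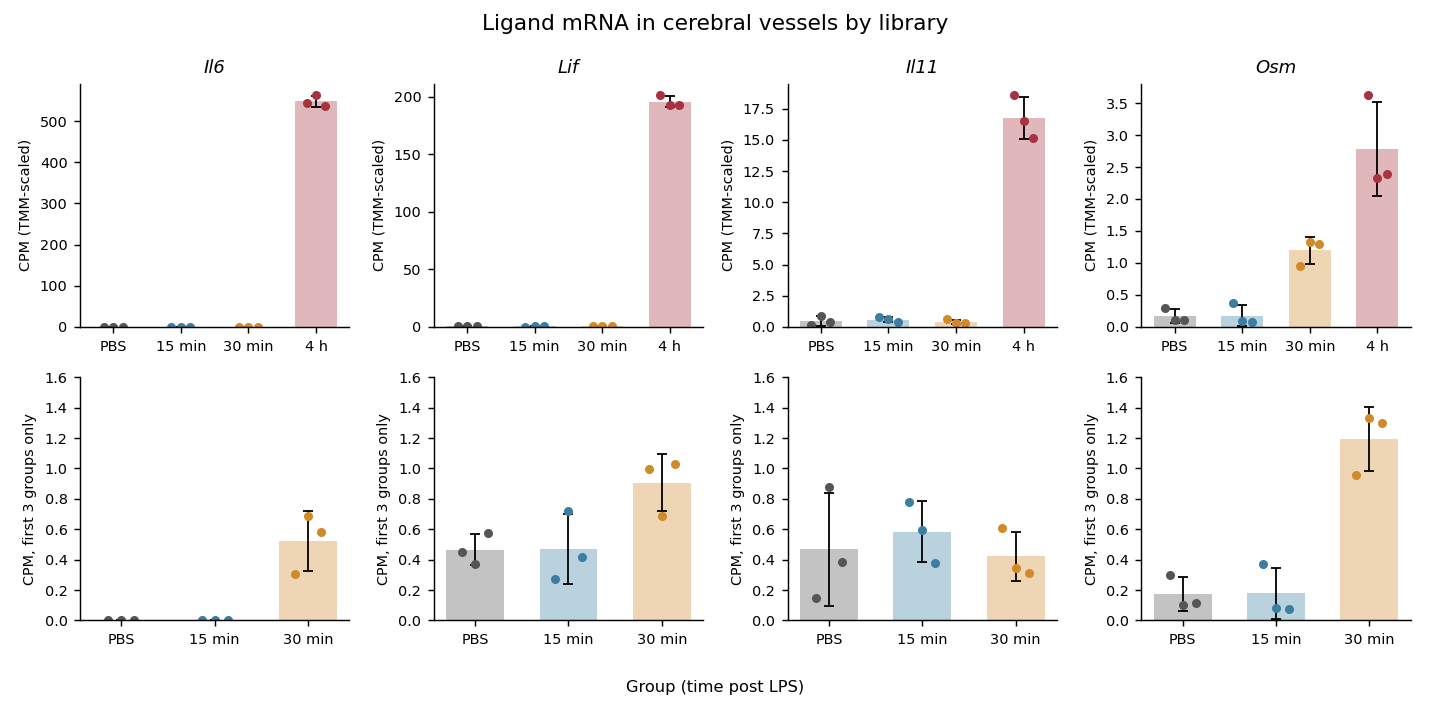
CPM of the 4 ligands in each library (points), with the group mean (bar) and SD (line), for PBS and 15 min, 30 min, and 4 h post LPS; the lower panels show the first 3 groups alone on an axis from 0 to 1.6 CPM. Il6 appeared at 30 min and Osm rose there, while Il11 did not leave the PBS range until 4 h.

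The 4 ligand mRNAs share a feature that the choice of the genes did not use. The sequence after the stop codon of the most abundant coding transcript held the AU-rich heptamer TATTTAT once in Il6, 5 times in Lif, 6 times in Il11, and 3 times in Osm, and 0 times in each of the 5 receptor chains. Such elements are known to bind proteins that shorten the life of cytokine mRNAs. Over the 15680 genes tested that had such a sequence, 28.3% held the heptamer at least once and 3.80% held it 3 times or more. The shorter motif ATTTA had a density of 14.1 per kilobase in Il6, 2.20 in Lif, 8.38 in Il11, and 5.90 in Osm. Among the receptors that density lay between 0 in Il11ra1 and 2.48 in Il6st, against a median of 1.21 over all genes. Lif was thus no denser than Il6st or Osmr in the short motif, having 3180 bases after its stop codon to the 427 of Il6. The 30 bases of each ligand with the most heptamers are shown, 5′ to 3′ on the transcript strand, GENCODE M21, with the heptamers in capitals, at chr5:30019728-30019757 plus, chr11:4270477-4270506 plus, chr7:4773497-4773526 minus, and chr11:4240945-4240974 plus.
Il6: tttatgattgaTATTTATtatttttatgaa
Lif: gtcTATTTATtactatgtccTATTTATatt
Il11: cagatctTATTTATTTATTTATtttggtac
Osm: ttttaTATTTATaaggccTATTTATaatgt

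Among the receptors, Osmr rose earliest and most. It encodes the oncostatin M receptor chain, and was at 82.9, 89.8, and 84.1 CPM in PBS and at 104, 108, and 109 CPM at 15 min. At 30 min it had 167, 163, and 158 CPM, and at 4 h 1052, 1078, and 1046 CPM. Each group lay wholly above the one before. The log2 fold change against PBS was 0.32 with an SE of 0.03 at 15 min, which did not pass, 0.93 with an SE of 0.03 at 30 min (adjusted p = 1.97e-09), and 3.63 with an SE of 0.03 at 4 h (adjusted p = 3.71e-28). From 15 to 30 min it was 0.61 with an SE of 0.03, close to the limit of 0.58, and did not pass (adjusted p = 0.737).

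Il6ra, which encodes the chain that binds IL-6, had 49.6, 47.9, and 48.7 CPM in PBS and 41.9, 40.9, and 39.3 CPM at 15 min. It was at 51.1, 50.1, and 49.9 CPM at 30 min, just above PBS, and at 334, 325, and 336 CPM at 4 h. The place of the 30 min libraries against PBS depended on the scale. In TPM they lay below PBS, at 10.5 to 11.2 against 12.2 to 13.2, and scaled by library size only the log2 fold change was -0.12. The 15 min libraries lay below those of PBS, by -0.26 on the log2 scale with an SE of 0.04, which did not pass. At 4 h the log2 fold change was 2.77 with an SE of 0.03 (adjusted p = 5.90e-25), nearly all of it after 30 min, from which it rose by 2.72 with an SE of 0.04 (adjusted p = 1.61e-24). The gene overlaps the antisense gene Gm42809, which had 1 to 36 fragments per library, and without strand information their reads cannot be told apart. The 250 bases before its start, on the minus strand at chr3:89913197-89913446, are shown beside those of Il6 as the sequence of its own receptor gene, with 2 C/EBP matches, from -116 to -109 and from -70 to -63.
Il6ra: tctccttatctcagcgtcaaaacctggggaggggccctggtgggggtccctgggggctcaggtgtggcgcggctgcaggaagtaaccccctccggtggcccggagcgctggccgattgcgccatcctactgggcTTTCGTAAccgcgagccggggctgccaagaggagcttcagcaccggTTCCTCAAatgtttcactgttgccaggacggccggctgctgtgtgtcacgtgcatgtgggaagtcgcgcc

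Il6st, the gene of gp130 itself, was at 303, 306, and 299 CPM in PBS. It lay below that range at 15 min, with 241, 239.9, and 238 CPM, and was at 271, 268, and 268 CPM at 30 min. At 4 h it had 1042, 1050.1, and 1031 CPM, above every other library. The lower levels at 15 and 30 min, -0.34 and -0.17 on the log2 scale with an SE of 0.02 each, lay outside the spread of the libraries but inside the limit of the test. The rise at 4 h was 1.78 on the log2 scale with an SE of 0.02 against PBS (adjusted p = 7.39e-24). Against 30 min it was 1.95 with an SE of 0.02 (adjusted p = 1.08e-24). These SEs do not cover the choice of scale. Over 11 other settings of the processing the rise of Il6st against PBS lay between 1.08 and 1.79. That of Il6ra lay between 2.06 and 2.77 and that of Osmr between 2.92 and 3.63, and each was called in all 11. TPM was not among these settings, and in TPM each rise was smaller than those ranges. There the means in PBS and at 4 h were 74.1 and 139 for Il6st, 12.7 and 43.7 for Il6ra, and 27.6 and 180.5 for Osmr.

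Lifr, the gene of the LIF receptor chain, was the member that fell. It was at 102, 98.0, and 97.0 CPM in PBS, 92.2, 94.9, and 97.3 CPM at 15 min, 83.0, 82.7, and 85.7 CPM at 30 min, and 54.5, 53.7, and 52.0 CPM at 4 h. The 15 min libraries overlapped PBS, the 30 min libraries lay below both, and the 4 h libraries lay below all others. The log2 fold change was -0.24 with an SE of 0.04 at 30 min, which did not pass, and -0.89 with an SE of 0.04 at 4 h (adjusted p = 9.17e-08). From 30 min to 4 h it was -0.65 with an SE of 0.04, with an adjusted p of 0.0531, which was between 0.0427 and 0.0494 in 9 of the 12 fits that left out 1 library and between 0.0696 and 0.147 without LPS 30 min replicate 3, LPS 4 h replicate 2, or LPS 4 h replicate 3. Lifr and Osmr, which moved in opposite directions at 4 h, are neighbors on chromosome 15, with 215644 bases between them, as are Osm and Lif on chromosome 11, with 16530 bases between them.

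Il11ra1, which encodes the chain that binds IL-11, did not pass the test in any comparison. It was at 79.8, 70.7, and 75.3 CPM in PBS, 75.8, 76.0, and 73.6 CPM at 15 min, 84.6, 82.5, and 83.5 CPM at 30 min, and 57.4, 55.2, and 56.4 CPM at 4 h. The 4 h libraries all lay below the rest, by -0.42 on the log2 scale with an SE of 0.05 against PBS (adjusted p = 1). How far below depended on the scale. The mean at 4 h was 74.9% of the PBS mean in TMM-scaled CPM, 45.9% in CPM by library size only, 50.3% in TPM, and 92.6% in the deposited normalized counts. Scaled by library size only, the log2 fold change was -1.12 and passed (adjusted p = 3.71e-11), but there the median of all genes moved to -0.71, and the share of called genes that were higher went from 57.96% to 18.2%. The value of this gene is uncertain in other ways as well. A retained-intron transcript of 523 bases held 41.2 of its 126 TPM in PBS and 33.1 of its 63.3 TPM at 4 h. The near-identical copies Il11ra2 and Gm13305 had 0 to 55 and 8 to 101 fragments per library, beside 745 to 2234 for Il11ra1, and 6 other genes overlap its annotated span.

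For Lifr the same 4 scales gave 54.0%, 33.2%, 19.2%, and 35.4% of the PBS mean at 4 h, so that it was lower in each, by different amounts. Its first PBS library stood apart in TPM, at 35.8 against 24.5 and 21.9, and in the deposited normalized counts, at 3587 against 2469 and 2231, but not in CPM. In that library 17.2 TPM were assigned to a processed transcript of 299 bases, against 6.39 and 4.56 TPM in the other PBS libraries.

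**Figure D2:**
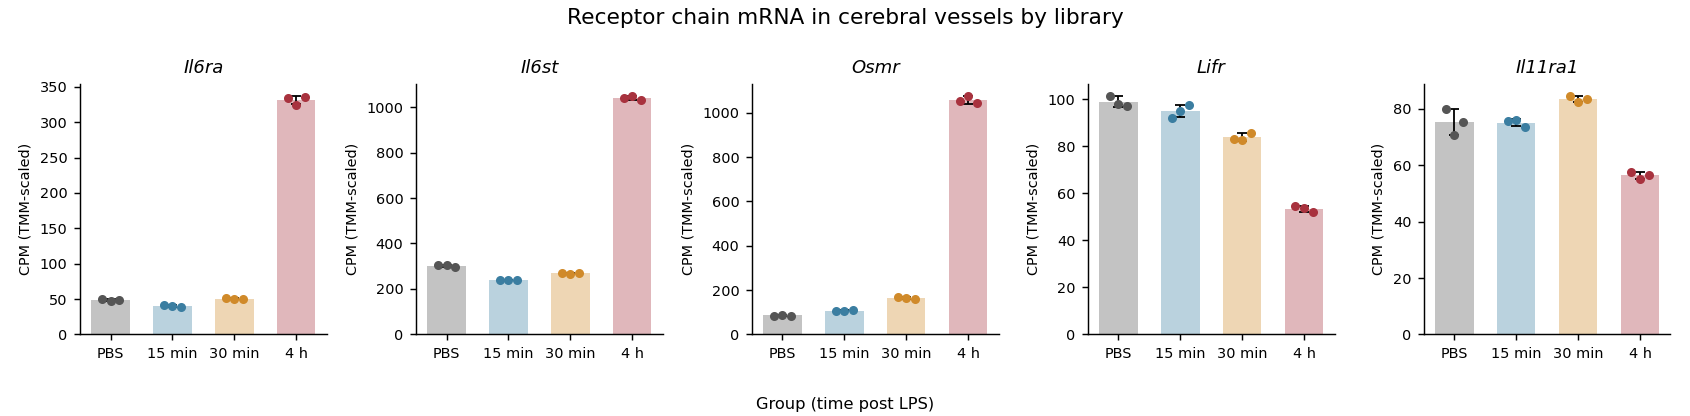
CPM of the 5 receptor chains in each library (points), with the group mean (bar) and SD (line), for PBS and 15 min, 30 min, and 4 h post LPS. Il6ra, Il6st, and Osmr were highest at 4 h, Lifr was lowest there, and Osmr alone rose past the threshold at 30 min.

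**Figure D3:**
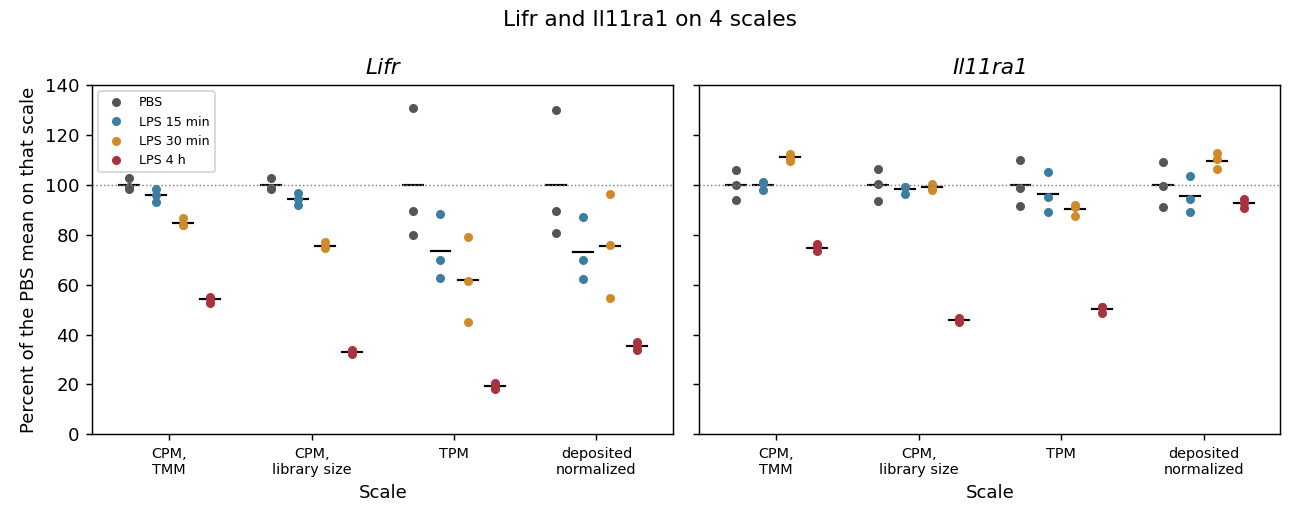
Lifr (left) and Il11ra1 (right) in each library as percent of the PBS mean on the same scale, for 4 scales; points are libraries and short lines group means. At 4 h Lifr lay between 19.2% and 54.0% and Il11ra1 between 45.9% and 92.6%, depending on the scale.

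Because TPM is scaled for transcript length, it allows levels of different members to be compared. In PBS the receptors led, with Il11ra1 at 126 ± 11.8 TPM (SD, n = 3), Il6st at 74.1 ± 1.89, Osmr at 27.6 ± 2.20, Lifr at 27.4 ± 7.39, and Il6ra at 12.7 ± 0.516. Osmr and Lifr overlapped there, as did Il11 with Lif and Lif with Osm, which all lay below 1 TPM, and the receptors were clear of each other otherwise. At 15 min the order of the receptors was the same, with no overlap between neighbors. At 30 min it was again the same. The 4 ligands lay between 0.393 TPM for Il11 and 0.742 TPM for Lif, and each overlapped the next in order. Only Osm and Il11 were clear of each other, at 0.589 to 0.823 and 0.232 to 0.574 TPM. At 4 h the order was Il6 at 489 ± 6.89 TPM, Osmr at 180.5 ± 4.65, Il6st at 139 ± 2.51, Il11ra1 at 63.3 ± 1.71, Lif at 54.8 ± 4.97, Il6ra at 43.7 ± 1.40, Il11 at 8.38 ± 0.808, Lifr at 5.27 ± 0.308, and Osm at 1.19 ± 0.339, and no neighbors overlapped. Il6 then held 87.4% to 89.1% of the summed ligand TPM. The 5 receptor chains together had between 257 and 289 TPM in PBS and between 426 and 435 TPM at 4 h. These TPM sum all transcripts of a gene, and the order differed over protein-coding transcripts alone. There Il6st, at 74.1 ± 1.89 TPM in PBS (SD, n = 3), lay above Il11ra1, at 54.7 ± 5.47, and Osmr, at 24.9 ± 1.04, above Lifr, at 17.3 ± 0.710, with no overlap. At 4 h Lif, at 43.4 ± 1.30, overlapped Il6ra, at 43.7 ± 1.40, and both lay above Il11ra1, at 19.03 ± 0.882 TPM.

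**Figure D4:**
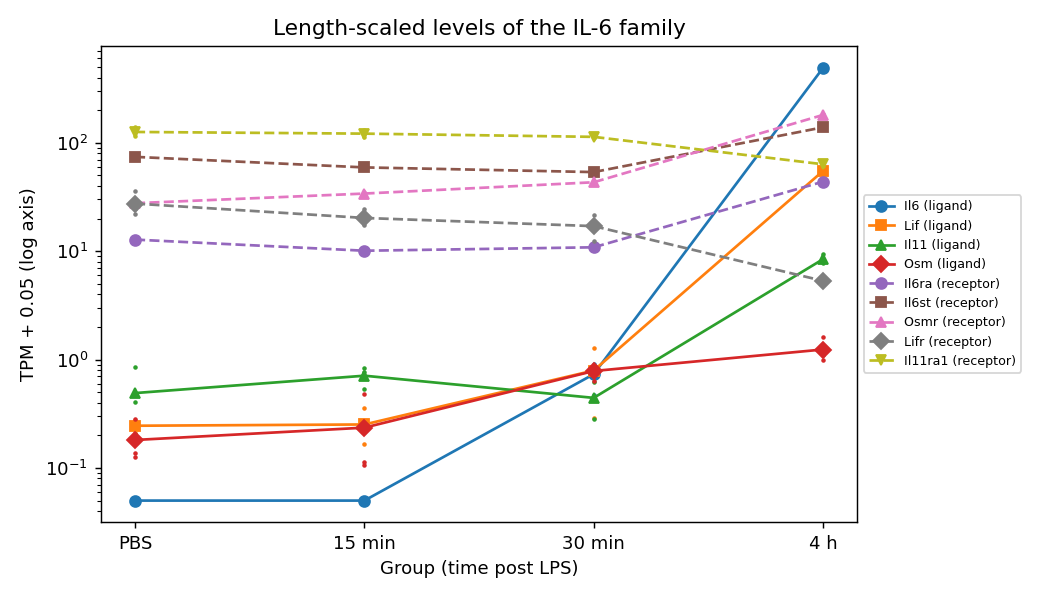
Mean TPM of the 9 members by group, summed over all transcripts, with 0.05 added and on a log axis, ligands as solid and receptors as dashed lines; small points are libraries, and Il6 was at 0 in PBS and at 15 min. At 4 h Il6 lay above every receptor chain, and Lifr, which had been level with Osmr in PBS, lay below Il11.

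The wider pathway was followed in 48 genes in 7 lists, of which 47 were tested, as Il31 had no count. Of these, 5 rose and 0 fell at 15 min, 12 rose and 0 fell at 30 min, and 30 rose and 4 fell at 4 h, beside 3.35%, 3.8%, and 19.1% of all genes called higher and 0.898%, 0.815%, and 13.9% called lower. These shares are the background for the counts of each list as well. In the same test 2 fell at 15 min and 0 at 30 min at an unadjusted p under 0.05, and DESeq2 and limma called 0 lower at either time. The median log2 fold change of the lists was 0.04, 0.37, and 2.18. Between the LPS groups, 13 rose and 0 fell from 15 to 30 min, beside 2.77% of all genes called higher and 1.99% lower. There 0 were lower also at an unadjusted p under 0.05 and by DESeq2 and limma. From 30 min to 4 h 23 rose and 4 fell, beside 17% higher and 11.9% lower.

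Of 7 other ligands tested, 2 rose at 4 h, Il27 and Ebi3, which encode the subunits of the cytokine IL-27. Ebi3 rose by 5.07 on the log2 scale with an SE of 0.22, from 0.434 to 14.8 CPM. Il27 had 3 fragments over the PBS libraries and 284 at 4 h, a ratio of 176 in mean CPM with a counting interval (95%, exact) from 59.7 to 859. Ctf1, Ctf2, Cntf, and Clcf1, which act through gp130 with Lifr or Cntfr, did not pass, at between -0.57 and 0.64. Among the other receptors Il27ra fell (-1.14, SE 0.22), Il11ra2 passed as higher (3.30, SE 1.15) on counts that were 0 in 1 of the 4 h libraries and that it shares with Il11ra1, and Cntfr and Il31ra did not pass.

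Some transducers of the signal passed the test at 4 h. At 15 and 30 min 0 of the 10 passed, also at an unadjusted p under 0.05 in edgeR's test with the fold limit. DESeq2 and limma called 0 as well. Without the fold limit 2 were called higher and 2 lower at 15 min, and 4 higher and 3 lower at 30 min. Of all 19150 genes, the test without the fold limit called 7393 at 15 min and 7066 at 30 min. Among those that rose at 4 h, Stat3 rose by 2.73, Jak2 by 2.53, Jak1 by 1.93, and Sos1, which couples the receptors to Ras, by 0.93 on the log2 scale. Gab1, an adaptor of the same branch, fell by 0.75, and Tyk2, Ptpn11, Shc1, and Grb2 did not pass, at between -0.31 and 0.48. Of the 5 inhibitors, 0 passed at 15 min (1, Socs3, at an unadjusted p under 0.05, and 0 by DESeq2 and limma), 2 rose at 30 min, and 4 rose and 1 fell at 4 h. Socs3, the feedback inhibitor that binds gp130, was at 12.7 ± 1.01 CPM in PBS (SD, n = 3), 21.7 ± 2.43 at 15 min, 41.8 ± 2.80 at 30 min, and 1130.4 ± 24.3 at 4 h. It did not pass at 15 min (adjusted p = 0.0545), and rose by 1.72 on the log2 scale at 30 min and by 6.48 at 4 h. Cish passed at 30 min as well, at 0.83. At 4 h Socs1 (4.44), Ptpn2 (2.68), and Cish (1.98) rose with Socs3, and Pias3, which restrains STAT3 in the nucleus, fell by 1.23.

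Of the 10 genes listed as STAT3 targets, 2 rose at 15 min, Junb (3.21) and Cebpd (1.61), 6 at 30 min, and 10 at 4 h. Largest at 4 h were Steap4 (6.51), an iron reductase, Serpina3n (6.39), a protease inhibitor, Timp1 (5.996), an inhibitor of matrix metalloproteinases, and Cebpd (5.75), a transcription factor. Junb was higher at 30 min, at 1402.5 ± 22.0 CPM, than at 4 h, at 861 ± 47.0 CPM.

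Genes for the shedding of the IL-6 receptor divided at 4 h. Adam17, the main sheddase, rose by 0.92 and Rhbdf2, which carries it to the cell surface, by 2.18, Adam10 fell by 0.77, and Rhbdf1 did not pass, at 0.18 on the log2 scale. Of 7 genes whose products act on Il6 mRNA or on its transcription, 3 rose at 15 min, 4 at 30 min, and 6 at 4 h. Zfp36, which encodes the protein tristetraprolin that binds the AU-rich element shown above, had a mean of 44.3 CPM in PBS, rose to 449.9 CPM by 15 min, with a log2 fold change of 3.34 and an SE of 0.03, and stood at 1874 CPM at 30 min and 986 CPM at 4 h. Arid5a, which stabilizes Il6 mRNA, rose by 0.94 at 15 min and 3.94 at 4 h, Nfkbiz, a nuclear partner of NF-κB at the Il6 promoter, by 2.14 and 5.29, and Zc3h12a, the gene of a nuclease that cuts Il6 mRNA, by 4.04 at 4 h after 2.46 at 30 min.

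**Figure D5:**
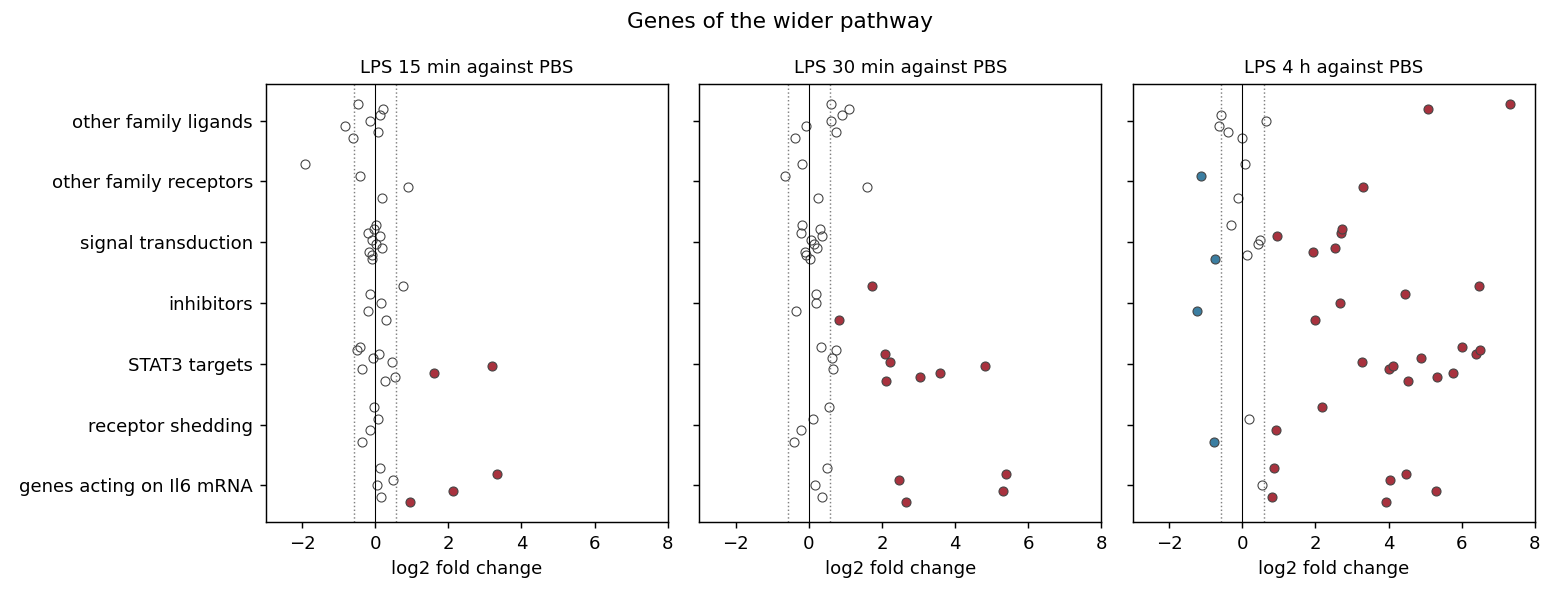
Log2 fold change against PBS of the 47 tested genes of the wider pathway at each of the 3 times, by list; filled points passed the test (red higher, blue lower), open points did not, and dotted lines mark the limit of 0.58. The number of filled points grew from 5 to 12 to 34, and those at 15 min were STAT3 targets and genes acting on Il6 mRNA.

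To see which genes had a time course most like that of each member, profiles of group means of log2(CPM + 0.5), centred over the 4 groups, were compared with those of 19149 genes. Closest to Il6 were Saa3, Slfn4, and Cxcl9, at a root mean square difference of 0.50 to 0.68, and no gene lay within 0.25. Closest to Lif were Il1rn, Cxcl11, and Adamts4, at 0.11 to 0.20, with 5 genes within 0.25. Those of Osm were Kdm6bos, Ccdc33, and Gadd45g, and those of Il11 were Daxx, Oas1a, and Ifih1, with 18 and 69 genes within 0.25. Osmr was closest to Gm8995, Bcl2a1a, and Tiparp, Il6ra to Hes7, Igsf6, and Pstpip2, and Il6st to Tnfrsf1a, Shisa5, and Cd86, with 73, 286, and 666 genes within 0.25. The lower members had common profiles, with 4699 genes within 0.25 of Lifr, nearest Cyb5d2, L3mbtl2, and Zfp704, and 6791 within 0.25 of Il11ra1, nearest Ywhaq, Rps21, and Nme7.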

How the data were processed

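Per the labels and the study's methods, the authors built SMART-Seq v4 and Nextera XT libraries, ran Salmon 1.2.1 against GRCm38.p6, and normalized gene counts with DESeq2. The estimated counts and the TPM values per transcript were deposited by the authors for each library. The gene table of the authors holds a normalized signal, counts scaled by size and transcript length factors. Transcripts were joined to GENCODE M21 by identifier (0.482% to 0.850% of fragments did not join), summed, rounded, and tested in edgeR 4.0.16 under R 4.3.3 (filterByExpr, TMM factors, 1 quasi-likelihood fit of all 12 libraries, glmTreat at 0.58). Mean TMM factors were 1.17, 1.15, 1.04, and 0.717 in time order. Columns were matched to samples through the number in each sample's file name. Alternatives were DESeq2 1.42.0, limma 3.58.1 on the deposited values, other scalings, filters, limits, and samples, a replicate block, and leaving out each library. Pools are separate animals per the labels, and an exact permutation test of 3 against 3 libraries cannot go below p = 0.1. Replicate numbers did not pair libraries (0 of 18 correlations over 0.1). Intervals and floors cover counting error only. Members, lists, and the naming rule (all members, up to 4 largest called genes per list at 4 h, counts of 5 or fewer by name, and the 3 most alike genes) were chosen with earlier results of these data known. Genes for sequences, Gm42809, Gm13305, Ly6g, Ly6c2, S100a8, S100a9, and Lyve1 were named after their values were seen. Some genes of these lists count in the totals but are not reported here by name.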

Additional observations from a re-analysis of the deposited data

Results flagged for a closer look

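Effects of LPS that differed between time points, by the test of one LPS group against another, were as follows, with no explanation weighed. From 15 to 30 min, Il6 was at least 13.9-fold higher and Osm rose by 2.65 on the log2 scale. Both calls were lost in limma on the deposited values plus 10 (adjusted p = 0.188 and 0.326). That of Osm was also lost after adding 1 (adjusted p = 0.0938) and with a transcript length offset (adjusted p = 0.0813). With only the 15 and 30 min groups compared, Il6 fell below the filter on low counts. From 30 min to 4 h the log2 fold changes were 10.01 for Il6, 7.75 for Lif, 5.29 for Il11, 2.72 for Il6ra, 2.70 for Osmr, and 1.95 for Il6st. Each was seen in all 3 libraries of the later group, which lay above all 3 of the earlier group. Groups of 3 libraries are too small to be searched for single outlying libraries.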

How the results depend on the processing

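Counts past the threshold are given in the order 15 min, 30 min, and 4 h against PBS, 30 against 15 min, and 4 h against 30 min. Without the fold limit, the quasi-likelihood test called 3 and 7 members in the first 2 and 8 from 15 to 30 min, 26, 35, and 32 pathway genes in the same 3, and 7393, 7066, 13124, 7153, and 12498 genes in all. A limit of 1.5 on the log2 scale after that test gave 322, 514, 3010, 383, and 2592 genes, and scaling by library size alone gave 10523 and 8915 genes at 4 h against PBS and against 30 min. That scaling moved the share of higher calls from 82.4% to 60.8% at 30 min, from 58.2% to 37.1% from 15 to 30 min, and from 58.8% to 21.7% from 30 min to 4 h. On the deposited values, limma after adding 1 called 401, 541, and 445 genes at 15 min, at 30 min, and from 15 to 30 min, and after adding 10 called 383, 504, and 418. After adding 10 it called 1 member at 30 min and 0 from 15 to 30 min, and the latter count was 1 after adding 1, with a transcript length offset, and with only the groups compared. The causes were not tested.

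Directions that turned were all of changes that had not passed. Lif at 15 min was 0.00690 with the length offset and 0.0139 with limma after adding 10. Il11 at 30 min was 0.086, 0.24, and 0.084 with the length offset and with limma after adding 1 and 10, and -0.59 to 0.66 with 1 library left out, the latter without PBS replicate 2. Lifr from 15 to 30 min was 0.035, 0.023, and 0.023 in the same 3. Scaled by library size alone, Il6ra and Il11ra1 at 30 min were -0.12 and -0.014. At 15 min, leaving out 1 library gave -0.12 to 1.14 for Il11, -0.046 to 0.043 for Il11ra1, -1.04 to 0.76 for Osm, and -0.43 to 0.28 for Lif.

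Leaving out each library gave 0 to 0, 3 to 3, 8 to 8, 2 to 2, and 6 to 7 members, 5 to 6, 12 to 13, 32 to 34, 13 to 13, and 27 to 27 pathway genes, and 707 to 832, 785 to 888, 6059 to 6415, 772 to 929, and 5293 to 5605 genes. With the replicate number as a block the counts of members were 0, 3, 8, 2, and 6, and those of all genes 792, 869, 6277, 890, and 5465. The numbers did not pair the libraries, as correlations of same-numbered libraries lay between -0.05 and 0.07. Il6 could not be fitted at 30 min with only the groups compared, since it fell below the filter. Low counts limit Il6, Lif, Il11, and Osm before 4 h, where few fragments decide a value.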

Other observations

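The rise of 3 members at 4 h was shared by their main coding transcripts. Il6st-201 went from 43.0 TPM in PBS to 86.0 TPM at 4 h and Il6st-203 from 30.7 to 51.6 TPM. Il6ra-201 went from 6.04 to 18.2 TPM and Il6ra-202 from 6.69 to 25.5 TPM. Lif-201 reached 29.4 TPM and Lif-202 13.9 TPM at 4 h, and the processed transcript Lif-203, of 390 bases, was estimated at 11.4 TPM. These transcript values were not tested.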
